A study of Mus musculus with 16 samples.

Results

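The comparison described here set germline stem (GS) cells labelled Top1mt KO against GS cells labelled Top1mt wild type, both kept at 1% oxygen. It used 4 of the 16 libraries of the series, 2 for Top1mt KO and 2 for Top1mt wild type. These were grouped by their labels and not by any measured value. The comparison itself was chosen with earlier results of these data known. Of 21924 protein-coding genes in the deposited table, the 14841 with at least 1 CPM in at least 2 of the 16 libraries were tested. GS cells are the cultured form of spermatogonial stem cells, and every culture received GDNF and FGF2 and stood on feeder cells, which were fibroblasts of mouse embryos. Both Top1mt groups were of the C57BL/6 strain, and the series text states that cells were established at 20% oxygen and then spent 2 days at 1%. Neither group has a library at 20% oxygen among those analysed here, so the comparison says nothing of an oxygen response. How the KO was made, whether it is 1 clone, and whether the feeder cells carry the same genotype are not stated in the labels. The other 12 libraries come from DBA/2 wild type cells and from Hif1a wild type and labelled Hif1a KO cells (the last treated with AxCANCre, an adenovirus that carries Cre), each at 1% and 20% oxygen.

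Top1mt codes for a type IB topoisomerase that is sent to mitochondria, where it relaxes supercoils in mitochondrial DNA during its replication and transcription. Spermatogonial stem cells renew in response to GDNF, which binds the GFRA1 and RET receptor pair and induces transcription factors such as Etv5, Bcl6b and Lhx1. At low oxygen, hypoxia-inducible factors bind ACGTG-containing sites and raise genes of glycolysis, vessel growth, collagen modification and mitophagy.

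CPM values are reads of a gene per 1000000 reads of its library on the 21924 protein-coding genes. The libraries of Top1mt KO cells held 15720223 and 18163320 reads on these genes, and those of wild type cells 15959786 and 19305553. A log2 fold change below is of CPM + 1, KO minus wild type, and is given with its standard error. A gene is said to have risen or fallen where limma's adjusted p (Benjamini-Hochberg over all 14841 genes) was at most 0.05, and n is 2 libraries a group throughout. The p-values and standard errors rest on a spread estimated for each gene over all 16 libraries of the 8 groups, not over the Top1mt libraries alone. Nothing in the labels says that the 2 libraries of a group came from separate cultures. The p-values therefore measure only the spread between libraries within groups, which may be technical.

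Top1mt itself, at 15:75657035-75678800 on the minus strand (GRCm38/mm10), had 9.99 and 10.96 CPM in KO cells, against 32.8 and 34.8 CPM in wild type cells. The KO libraries were the lowest of all 16, since the 12 libraries outside the Top1mt line lay between 24.5 and 57.1 CPM. Top1mt fell by 1.60 ± 0.07 on the log2 scale (limma adjusted p = 1.5e-12). Reads on the gene were still present in KO libraries. Their place along the gene, the part deleted and the share from feeder cells were not measured.

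**Figure D1:**
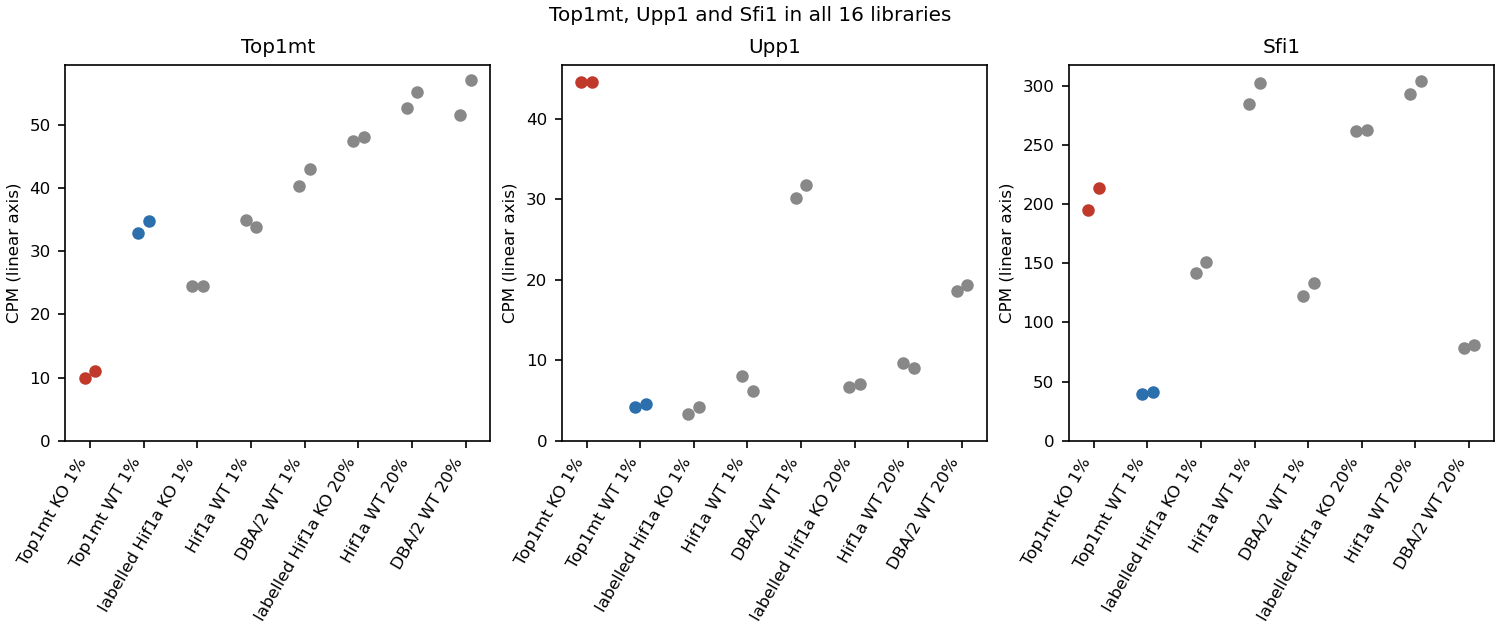
CPM (linear axis) of Top1mt, Upp1 and Sfi1 in each of the 16 libraries, 1 point per library, by group and oxygen level. Top1mt was lowest in the 2 KO libraries (9.99 and 10.96 CPM); Upp1 was highest in them (44.6 CPM in each), and Sfi1 was lowest in the 2 wild type libraries of the Top1mt line (39.2 and 41.1 CPM).

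Before any gene group is described, 2 features set these libraries apart from the rest. The first was that genes of chromosomes 2 and 19 were lower in KO cells as a body. The median log2 fold change was -0.46 over 1176 genes on chromosome 2 and -0.47 over 509 genes on chromosome 19, whereas the medians of the other 17 autosomes lay between -0.13 and 0.11. On chromosomes 2 and 19 together, 65.7% of 1685 tested genes fell, against 29.1% of all other genes, and 115 of the 204 falls of at least 2-fold were there. The shift ran along the whole of each chromosome: medians of 10-Mb windows lay between -0.80 and -0.32 in 19 windows of chromosome 2 and between -0.55 and -0.46 in 7 windows of chromosome 19. Set against the mean of the 12 other libraries, KO libraries stood at -0.04 and -0.04 on chromosome 2 and 0.01 and 0.03 on chromosome 19. Wild type libraries stood at 0.34 and 0.34 on chromosome 2 and 0.40 and 0.41 on chromosome 19, outside the range of the 12 others (-0.04 to 0.02 and -0.03 to 0.12). Chromosome 6 stood high in both groups, at 0.32 and 0.29 in KO and 0.38 and 0.36 in wild type libraries, against -0.08 to 0.06 in the others. The number of chromosome copies was not measured. Counts of gene lists are therefore given with and without genes of chromosomes 2 and 19 where these matter.

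**Figure D2:**
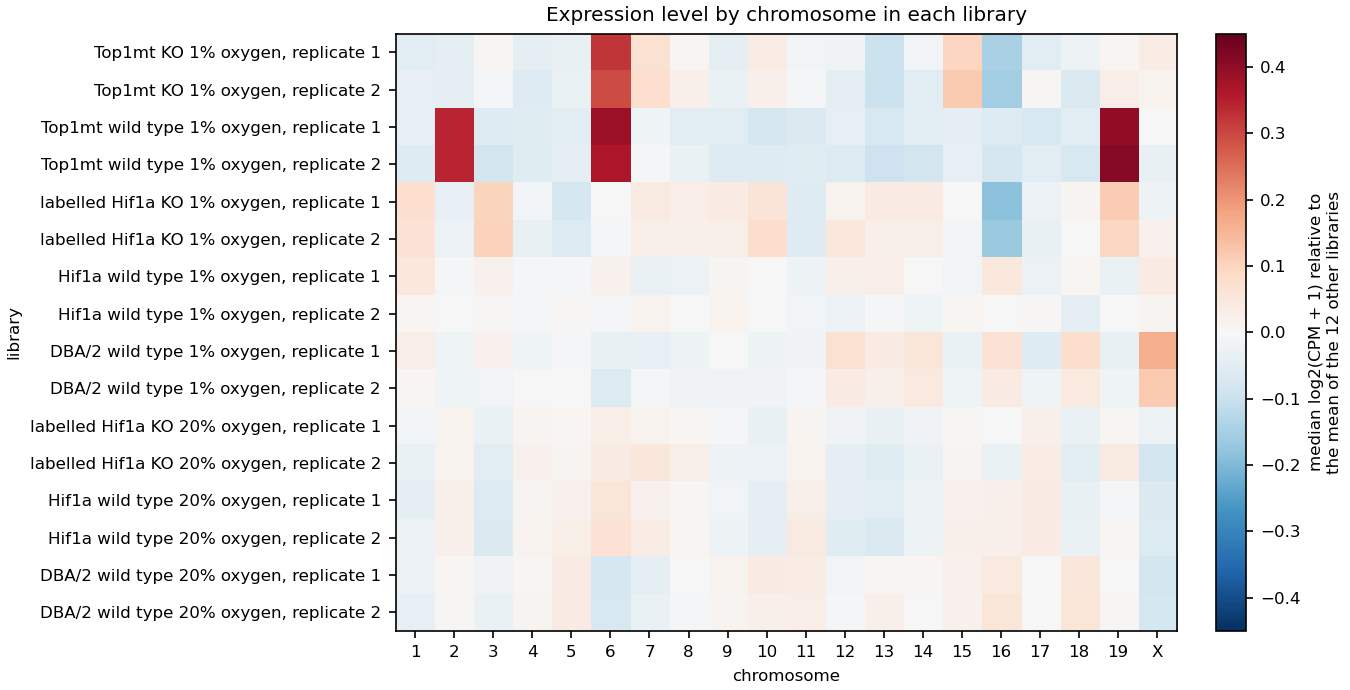
Median over genes of each chromosome of log2(CPM + 1) relative to the mean of the 12 libraries outside the Top1mt line, centred on each library's own median, for genes with a mean of at least 5 CPM. Rows are libraries and columns chromosomes. The 2 Top1mt wild type libraries are high on chromosomes 2, 6 and 19, and the 2 KO libraries on chromosome 6.

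The second feature was the balance of feeder and germ cell transcripts. All 24 feeder fibroblast markers rose in KO cells, and 15 of 20 germ cell identity genes fell while 2 rose. The feeder markers summed to 46869 and 45892 CPM in KO libraries, against 25049 and 24935 CPM in wild type libraries, within a range of 7488 to 69690 CPM over the 12 others. The germ cell genes had a sum of 3393 and 3429 CPM in KO libraries, against 4384 and 4351 CPM in wild type libraries. No member of either list was at 0. In such mixed cultures fewer cells of a type and less RNA per cell cannot be told apart, and how far the balance of cell types accounts for any result below was not tested. For this reason each library was also scaled to its summed germ cell identity genes. That scaling moved the median over all genes to 0.28 from -0.04, and values on it are called germ-scaled below and are to be read against 0.28. Testis somatic markers summed to 200 and 198 CPM in KO libraries, against 108 and 111 CPM in wild type libraries. Of the 15 members 9 were tested, of which 6 rose and 1 fell, the risen ones including Sox9 (0.83 ± 0.11) and Inhbb (1.00 ± 0.13). Inhbb alone had 8.28 to 143 CPM in the 12 other libraries, where the whole list summed to 73.1 to 193 CPM. How far Inhbb sets the sum was not tested. Leukocyte markers summed to 30.3 and 28.9 CPM in KO and 28.4 and 26.2 CPM in wild type libraries, and endothelial markers to 23.5 and 21.0 CPM in KO and 26.3 and 27.1 CPM in wild type libraries.

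**Figure D3:**
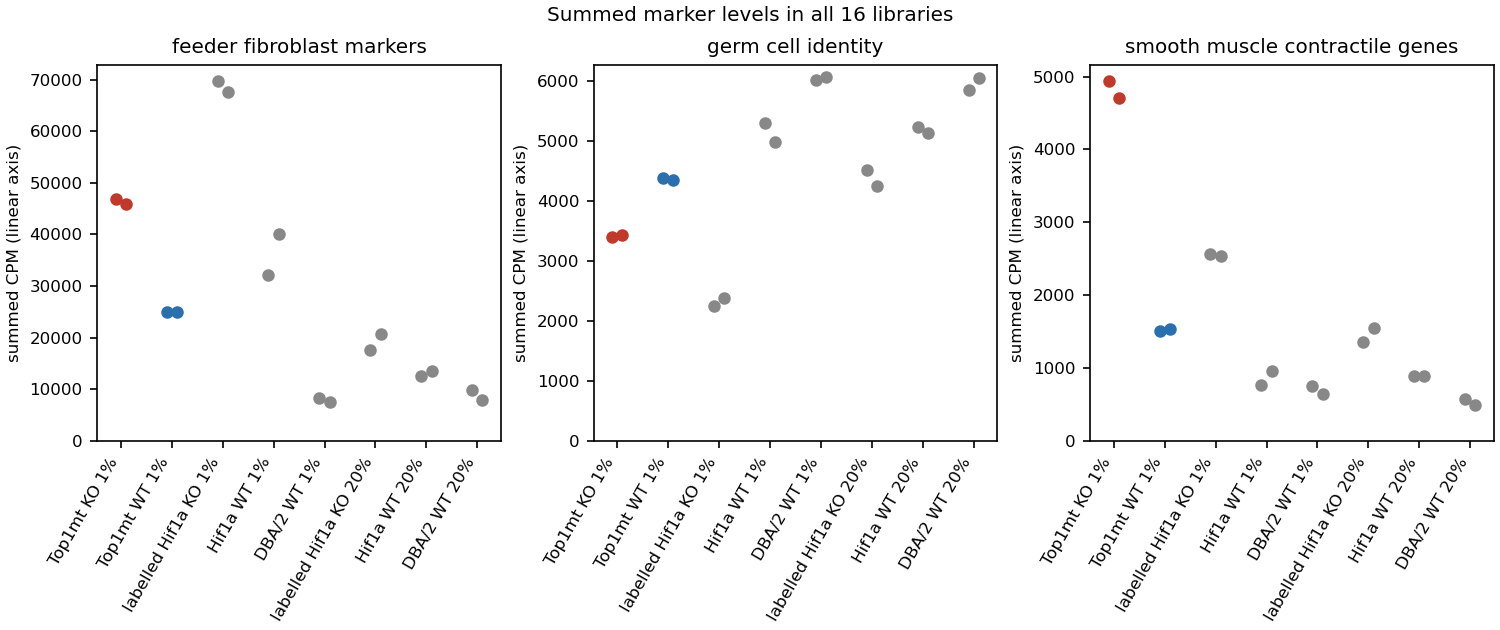
Summed CPM (linear axis) of the feeder fibroblast markers, the germ cell identity genes and the smooth muscle contractile genes in each of the 16 libraries, 1 point per library. KO libraries lie above wild type libraries of the Top1mt line for feeder and contractile genes and below them for germ cell genes.

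Across the whole table, 3735 genes rose in KO cells (25.2%) and 4933 fell (33.2%), so that 58.4% were called. Rises of at least 2-fold were seen for 267 genes (1.8%) and falls of at least 2-fold for 204 (1.37%). The median over all genes was -0.04. Of the genes called, 43.1% were higher, and on the germ-scaled values 84.1% were. Called shares this high set the background for every list below: a list in which 25.2% of members rose and 33.2% fell is like the table as a whole. When germ-scaled, 8268 of the 14841 genes rose and 1564 fell, and germ-scaled list counts are to be read against these.

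Among the 15 largest falls were genes at the centre of the GDNF response. Gfra1, which codes for the GDNF receptor subunit GFRA1, had 54.3 and 59.8 CPM in KO cells, against 293 and 283 CPM in wild type cells, and fell by 2.32 ± 0.07 (limma adjusted p = 1.5e-15). The KO libraries lay below all of the 12 others (73.7 to 257 CPM), and the wild type libraries lay above all of them. Gfra1 lies on chromosome 19, and with values centred per chromosome its log2 fold change was -1.93. Lhx1, a LIM homeobox factor induced by GDNF, had 1.72 and 1.05 CPM in KO cells, against 9.52 and 6.01 CPM in wild type cells. The steepest fall was of Chrna4, a nicotinic acetylcholine receptor subunit on chromosome 2, with 9.54 and 9.36 CPM in KO cells, against 64.8 and 59.8 CPM in wild type cells (-2.60 ± 0.06). The 12 other libraries held 50.4 to 103 CPM of Chrna4, so that it was the KO libraries that stood apart. Sez6, a membrane protein known from neurons, had 31.1 and 29.8 CPM in KO cells, against 148 and 148 CPM in wild type cells. Tcl1, a co-activator of the kinase AKT, had 8.52 and 7.98 CPM in KO cells, against 32.2 and 28.4 CPM in wild type cells. The rest of the 15 were Nek10, 2410141K09Rik, Pcdh12, Acss1 (the mitochondrial acetyl-CoA synthetase), Sfrp5 (a secreted WNT inhibitor), Sall3, Gm5751, Pdzd2, Cnnm1 and Plekhb1, with log2 fold changes between -2.30 and -1.64. Of the 15, 5 lie on chromosomes 2 and 19.

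The fall extended over the self-renewal genes. Of 29 tested members 24 fell and 1 rose, with a median of -0.62 against -0.04 over all genes, and 20 of the 24 lie outside chromosomes 2 and 19 (out of 25 such members, 1 of which rose). On the germ-scaled values 17 fell and 3 rose, with a median of -0.34 against 0.28 over all genes, and with values centred per chromosome the counts stayed at 24 and 1. Ret, the signalling subunit of the GDNF receptor, had 129 and 126 CPM in KO cells, against 348 and 335 CPM in wild type cells (-1.41 ± 0.04, limma adjusted p = 7.1e-15). Etv5 had 92.6 and 93.4 CPM in KO cells, against 277 and 255 CPM in wild type cells. Neither gene's KO and wild type libraries overlapped, which held for 78.5% of all tested genes. Bcl6b had 46.6 and 53.9 CPM in KO cells, against 108 and 97.8 CPM in wild type cells. The ERK feedback genes Dusp6 and Spry4, which are induced by GDNF and FGF signalling, fell by 1.49 ± 0.06 and 0.89 ± 0.08. Zbtb16 (PLZF), a repressor that keeps spermatogonia undifferentiated, had 39.3 and 41.0 CPM in KO cells, against 109 and 105 CPM in wild type cells. Both groups lay below the 12 other libraries for Zbtb16, which held 129 to 498 CPM. Id4, a marker of stem spermatogonia, fell by 0.77 ± 0.07, the zinc finger gene Glis3 by 1.47 ± 0.05, and the laminin receptor subunit Itga6, on chromosome 2, by 1.43 ± 0.07. Ccnd2, cyclin D2, was the member that rose (0.33 ± 0.05).

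**Figure D4:**
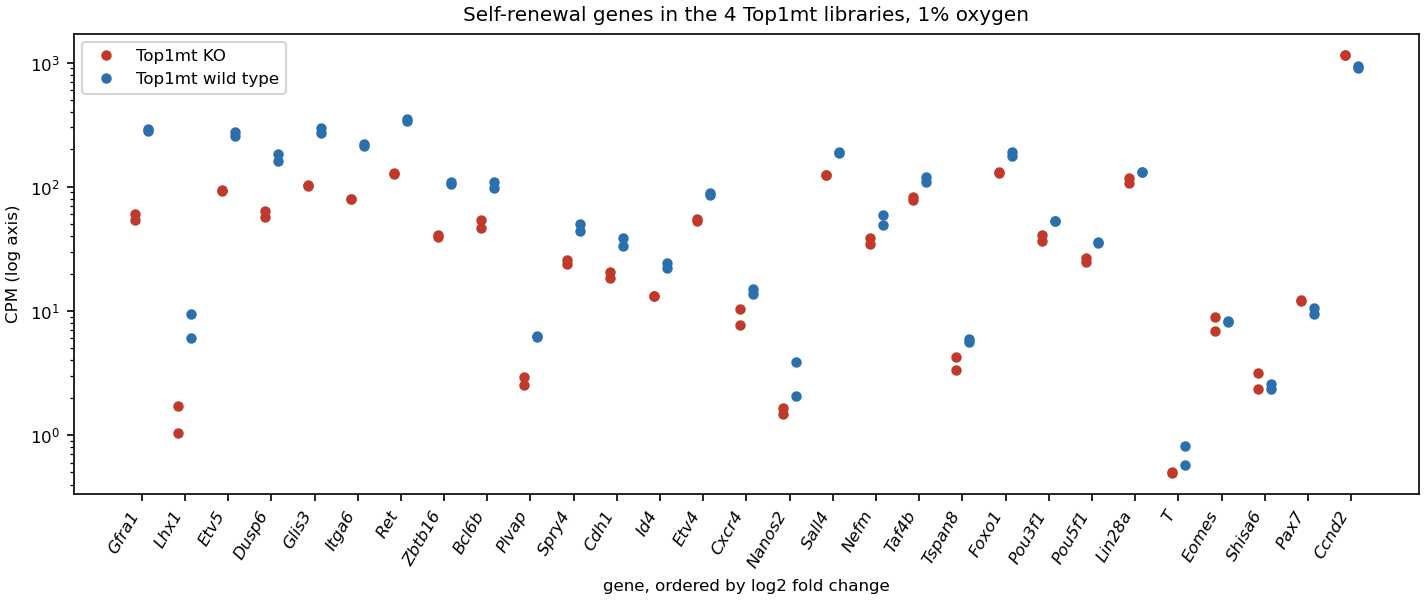
CPM (log axis) of the 29 tested self-renewal genes in the 2 KO (red) and 2 wild type (blue) libraries at 1% oxygen, ordered by log2 fold change. At the left, from Gfra1 to Id4, every KO point lies below every wild type point; Ccnd2, at the right, lies higher in KO cells.

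Over the germ cell identity list the median was -0.32, within a range from -1.06 to 0.32. The tudor protein gene Tdrd1, on chromosome 19, had 138 and 146 CPM in KO cells, against 302 and 292 CPM in wild type cells. The RNA helicase Ddx4 had 310 and 313 CPM in KO cells, against 469 and 439 CPM in wild type cells (-0.54 ± 0.06). Mael, Stk31 and Piwil2, genes of the piRNA pathway and the germ cell granule, fell by 0.66 ± 0.06, 0.79 ± 0.06 and 0.43 ± 0.05. Differentiation genes moved in both directions, 6 of 15 up and 6 down with a median of 0.04; 3 of the 6 that fell lie on chromosomes 2 and 19. Kit, the receptor of differentiating spermatogonia, had 65.6 and 68.8 CPM in KO cells, against 81.3 and 82.4 CPM in wild type cells (-0.28 ± 0.06), and its sign turned to 0.07 when germ-scaled. Stra8, the retinoic acid target of premeiotic cells, had 274 and 255 CPM in KO cells, against 204 and 218 CPM in wild type cells (0.32 ± 0.08). The retinoic acid receptor Rarg and the retinoic acid hydroxylase Cyp26b1 rose by 0.76 ± 0.07 and 0.98 ± 0.13. The DNA methyltransferase Dnmt3b and the helix-loop-helix factor Sohlh1, both on chromosome 2, fell by 0.92 ± 0.05 and 0.64 ± 0.08. Of 20 meiotic prophase genes 10 fell and none rose, with a median of -0.17. Sycp2, a synaptonemal complex component on chromosome 2, fell by 1.15 ± 0.07, Msh4 by 1.08 ± 0.13, Dmc1 by 0.65 ± 0.07 and the cohesin Stag3 by 0.53 ± 0.05. When germ-scaled, 7 meiotic genes fell and 8 rose, and the median turned to 0.18, against 0.28 over all genes. The differentiation list then showed 9 rises and 2 falls.

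Genes of the cell cycle fell as well, 21 of 25 with 3 rises and a median of -0.47. Outside chromosomes 2 and 19, 17 of 21 fell, and when germ-scaled 12 of 25 fell and 4 rose, with a median of -0.12. Mki67, which marks dividing cells, had 232 and 206 CPM in KO cells, against 349 and 328 CPM in wild type cells (-0.63 ± 0.06). The replicative helicase subunit Mcm6 fell by 0.63 ± 0.05. The steepest 4 falls, of the checkpoint kinase Bub1 (-1.20 ± 0.08), the clamp Pcna (-0.89 ± 0.06), E2f1 (-0.84 ± 0.05) and Aurka (-0.79 ± 0.06), were all of genes on chromosome 2. The members that rose were the D cyclins Ccnd1 (0.76 ± 0.10), Ccnd2 and Ccnd3 (0.35 ± 0.05). Of 7 CDK inhibitors 4 rose and 1 fell. Cdkn1a (p21) had 394 and 394 CPM in KO cells, against 235 and 233 CPM in wild type cells (0.75 ± 0.10), and Cdkn2b and Cdkn2a rose by 0.63 ± 0.10 and 0.42 ± 0.08. Of 20 p53 targets, Cdkn1a among them, 8 rose and 3 fell, with a median of 0.10. The feeder markers rose together with these inhibitors, and the part of feeder cells in their levels was not tested.

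The rises were led by 1 enzyme. Upp1, uridine phosphorylase, which splits uridine to uracil and ribose-1-phosphate, had 44.6 and 44.6 CPM in KO cells, against 4.2 and 4.56 CPM in wild type cells (3.08 ± 0.12, limma adjusted p = 2.1e-13). Wild type libraries lay within the 12 others (3.33 to 31.7 CPM), and KO libraries lay above all of them. Sfi1, which codes for a centrin-binding protein, had 195 and 214 CPM in KO cells, against 39.2 and 41.1 CPM in wild type cells (2.32 ± 0.06). Here the wild type libraries stood apart, since the 12 others held 78.6 to 304 CPM and the KO libraries lay among them. Apod, a lipid-binding lipocalin, had 33.7 and 33.6 CPM in KO cells, against 4.76 and 4.35 CPM in wild type cells, and 2.64 to 11.7 CPM in the 12 others. The remaining largest rises were of Sparcl1, Lims2, Sprr2k, Ptprz1, Col28a1, Foxs1, Tfpi2 and 5 smooth muscle contractile genes, with log2 fold changes between 1.72 and 2.26.

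The contractile genes were higher in KO cells as a list. Of 13 tested 11 rose and none fell, with a median of 1.46 against 0.90 for the 24 feeder markers. Acta2, smooth muscle actin, had 1458 and 1405 CPM in KO cells, against 327 and 340 CPM in wild type cells (2.10 ± 0.11), although it lies on chromosome 19. The 12 other libraries held 39.8 to 488 CPM. Tagln, which codes for the actin-binding protein transgelin, had 1016 and 1001 CPM in KO cells, against 246 and 263 CPM in wild type cells. Tpm2, Actg2, Cnn1, Myl9 and Tpm1 (tropomyosins, an actin, calponin and a myosin light chain) rose by 1.38 to 1.89. The summed level of the list was 4935 and 4707 CPM in KO libraries, against 1506 and 1536 CPM in wild type libraries, and 496 to 2558 CPM in the 12 others, so that KO libraries were the highest of the series. Feeder markers did not show that order: libraries labelled Hif1a KO at 1% oxygen had 69690 and 67710 CPM. Those libraries were likewise above their wild type for the contractile list, with 2558 and 2538 CPM, against 768 and 952 CPM in Hif1a wild type. The part of feeder cells in the contractile values was not tested. Among the feeder markers, the collagen gene Col6a3 rose by 1.17 ± 0.10, Mmp2 by 0.96 ± 0.09, Prrx1 by 0.98 ± 0.09 and Postn by 0.92 ± 0.08.

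Of 8 genes for topoisomerases and the repair enzymes Tdp1 and Tdp2, 7 fell and Top2b rose. Over all tested genes 33.2% fell and 25.2% rose. Top1mt, the gene named in the label, is 1 of the 7. When germ-scaled 4 of the 8 fell and 2 rose, with a median of -0.04 against 0.28 over all genes. Top1, the nuclear enzyme of the same type as Top1mt, had 90.8 and 80.7 CPM in KO cells, against 123 and 122 CPM in wild type cells (-0.51 ± 0.06). It lies on chromosome 2, and with values centred per chromosome it no longer passed the test (-0.13, limma adjusted p = 0.081). Top2a, the type II enzyme of dividing cells, had 396 and 378 CPM in KO cells, against 594 and 591 CPM in wild type cells (-0.61 ± 0.05). Top2b, its paralog, had 65.6 and 64.2 CPM in KO cells, against 41.4 and 40.6 CPM in wild type cells (0.65 ± 0.06). Top2a and Top2b thus moved in opposite directions, also when germ-scaled (-0.26 and 1.00). Top3a, which has a mitochondrial form, had -0.20 ± 0.06, Top3b -0.28 ± 0.05 and the repair enzyme Tdp1, which frees trapped type I topoisomerases, -0.24 ± 0.07. The signs of these 3 turned when germ-scaled, and Top3a and Tdp1 did not pass the test without KO replicate 2 (limma adjusted p = 0.077 and 0.12) or without wild type replicate 2 (0.093 and 0.085). Tdp2, which frees type II enzymes, fell by 0.51 ± 0.06.

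Of the 13 protein-coding transcripts of the mitochondrial genome, 7 were measured; the other 6 had at most 1 read summed over all 16 libraries. In KO libraries the measured transcripts summed to 15722 and 16973 CPM, against 18555 and 18589 CPM in wild type libraries. The groups did not overlap, as for most tested genes. Of the 7, 2 fell and none rose, with a median of -0.13. mt-Nd5, a complex I subunit, had 2492 and 2680 CPM in KO cells, against 3312 and 3241 CPM in wild type cells (-0.34 ± 0.09, limma adjusted p = 0.0020). mt-Co1, the core subunit of cytochrome c oxidase, had 4614 and 5194 CPM in KO cells, against 5679 and 6012 CPM in wild type cells (-0.26 ± 0.10, limma adjusted p = 0.029). The call of mt-Co1 was lost without KO replicate 1 (limma adjusted p = 0.24) and without either wild type replicate (0.057 and 0.16), and also with TMM scaling (0.080) and by edgeR (adjusted p = 0.061). mt-Nd1, mt-Nd2, mt-Nd4, mt-Nd6 and mt-Cytb had log2 fold changes of -0.01, 0.04, -0.17, -0.12 and -0.13 and did not pass the test. When germ-scaled, both falls were lost (0.01 for mt-Nd5 and 0.10 for mt-Co1), 4 of the 7 transcripts passed as risen and none as fallen, and the list's median was 0.21 against 0.28 over all genes.

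Nuclear genes for mitochondrial DNA replication and transcription showed more falls than rises, 13 against 4 of 30, with a median of -0.15. Outside chromosomes 2 and 19 these counts were 10 and 4 of 27. When germ-scaled there were 2 falls and 16 rises, with a median of 0.20. Over all 14841 genes there were 1564 falls and 8268 rises on that scale, with a median of 0.28. Polrmt, the mitochondrial RNA polymerase, had 47.3 and 53.2 CPM in KO cells, against 38.1 and 39.8 CPM in wild type cells (0.36 ± 0.07). Twnk, the replicative helicase, on chromosome 19, had 39.8 and 42.3 CPM in KO cells, against 58.3 and 61.0 CPM in wild type cells (-0.53 ± 0.07), and centred per chromosome it had -0.14 (limma adjusted p = 0.061). Tfam, which packages mitochondrial DNA and starts its transcription, had 58.0 and 52.6 CPM in KO cells, against 61.4 and 63.2 CPM in wild type cells. Its fall of 0.17 ± 0.06 (limma adjusted p = 0.021) was lost without KO replicate 2 (0.24), without wild type replicate 2 (0.11), with TMM scaling (0.094) and by DESeq2 (adjusted p = 0.21), and its sign turned when germ-scaled. Polg, the catalytic subunit of the replicative polymerase, fell by 0.20 ± 0.05 and also turned in sign when germ-scaled (0.16). The single-strand binding protein Ssbp1 fell by 0.44 ± 0.07, the nuclease Mgme1, on chromosome 2, by 0.76 ± 0.08 and the nuclease-helicase Dna2 by 0.37 ± 0.07. The protease Lonp1 rose by 0.28 ± 0.05.

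Of 7 regulators of mitochondrial biogenesis 6 fell, but 3 of the 6 lie on chromosomes 2 and 19. These were the PGC-1-related co-activator Pprc1 (-0.99 ± 0.04), the GABP subunit Gabpb1 (-0.64 ± 0.06) and the nuclear receptor Esrra (-0.40 ± 0.09). Pprc1 had 223 and 228 CPM in KO cells, against 439 and 459 CPM in wild type cells. Esrra had -0.01 when centred per chromosome. When germ-scaled, 2 of the 7 regulators fell and 1 rose. The counts for the respiratory chain depended on the scaling. Of 36 nuclear complex I subunits 6 rose and 6 fell, and 4 of the 6 falls were of genes on chromosomes 2 and 19, Ndufv1 (-0.77 ± 0.06) and Ndufs8 (-0.73 ± 0.06) among them. Ndufv3 rose by 0.61 ± 0.06. Of 40 nuclear subunits of complexes II to V, 9 rose and 8 fell, and 4 of the 8 were on these chromosomes, including the ATP synthase subunit Atp5c1 (-0.75 ± 0.05). Uqcrq, of complex III, rose by 0.50 ± 0.09. Outside chromosomes 2 and 19, 6 rose and 2 fell of complex I and 9 rose and 4 fell of complexes II to V. When germ-scaled, 28 rose and 2 fell of complex I and 34 rose and 1 fell of complexes II to V. On that scale 8268 of all 14841 genes rose and 1564 fell. Germ-scaled medians were 0.34 for complex I and 0.38 for complexes II to V, against 0.28 over all genes. Mitochondrial ribosomal proteins showed 12 rises and 25 falls of 77, with a median of -0.07. Outside chromosomes 2 and 19 there were 12 rises and 17 falls of 68, and when germ-scaled 50 rises and 6 falls of 77. Mrpl16 and Mrps5, on chromosomes 19 and 2, fell by 0.77 ± 0.07 and 0.73 ± 0.05. Cytosolic ribosomal proteins showed 31 rises and 10 falls of 77, with a median of 0.12. TCA cycle enzymes showed 3 rises and 5 falls of 16, and fatty acid oxidation genes 3 of each among 13. The shares over all tested genes were 25.2% risen and 33.2% fallen. When germ-scaled, rises and falls numbered 70 and 0 for cytosolic ribosomal proteins, 13 and 0 for the TCA cycle and 11 and 1 for fatty acid oxidation. The steepest of these was the fall of Cpt1a, the carnitine palmitoyltransferase of the outer membrane, on chromosome 19. Cpt1a had 161 and 159 CPM in KO cells, against 291 and 270 CPM in wild type cells.

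Stress and quality control genes of mitochondria gave a mixed picture. Mitochondrial protein quality control genes rose in 4 and fell in 5 of 12, and fission and fusion genes rose in 2 and fell in 2 of 9. Integrated stress response genes rose in 11 and fell in 5 of 23 (18 and 1 when germ-scaled). The transcription factors Atf4 and Atf5 rose by 0.45 ± 0.05 and 0.96 ± 0.11, Nupr1 by 0.94 ± 0.11 and the mitochondrial folate enzyme Mthfd1l by 0.79 ± 0.08, while the serine synthesis enzyme Psat1, on chromosome 19, fell by 0.49 ± 0.05. Mitophagy receptors and adaptors rose in 8 and fell in 5 of 15. Bnip3, a mitophagy receptor and hypoxia target, had 252 and 246 CPM in KO cells, against 132 and 136 CPM in wild type cells (0.90 ± 0.06). Gabarapl1, Fundc1 and Pink1 rose by 0.60 ± 0.05, 0.67 ± 0.11 and 0.56 ± 0.08. Optn, an adaptor on chromosome 2, fell by 0.95 ± 0.07. Antioxidant genes rose in 9 and fell in 7 of 22 (16 and 1 when germ-scaled). Nnt, the mitochondrial transhydrogenase, in which C57BL/6J mice carry a deletion, had 39.3 and 39.5 CPM in KO cells, against 20.4 and 19.8 CPM in wild type cells (0.94 ± 0.10), and 10.97 to 53.1 CPM in the 12 others. Hmox1, Gpx3 and Txn2 rose by 0.61 ± 0.06, 0.93 ± 0.09 and 0.44 ± 0.06, and the glutathione reductase Gsr fell by 0.72 ± 0.05. In pyrimidine and dNTP supply 11 of 15 genes fell and 2 rose, Upp1 being 1 of the 2. Outside chromosomes 2 and 19, 9 of 13 fell, and when germ-scaled 4 of the 15 fell and 6 rose, with a median of -0.03. The ribonucleotide reductase subunits Rrm1 and Rrm2 fell by 0.55 ± 0.05 and 0.64 ± 0.06, the deoxycytidine kinase Dck by 0.62 ± 0.06 and the dUTPase Dut, on chromosome 2, by 0.78 ± 0.06.

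**Figure D5:**
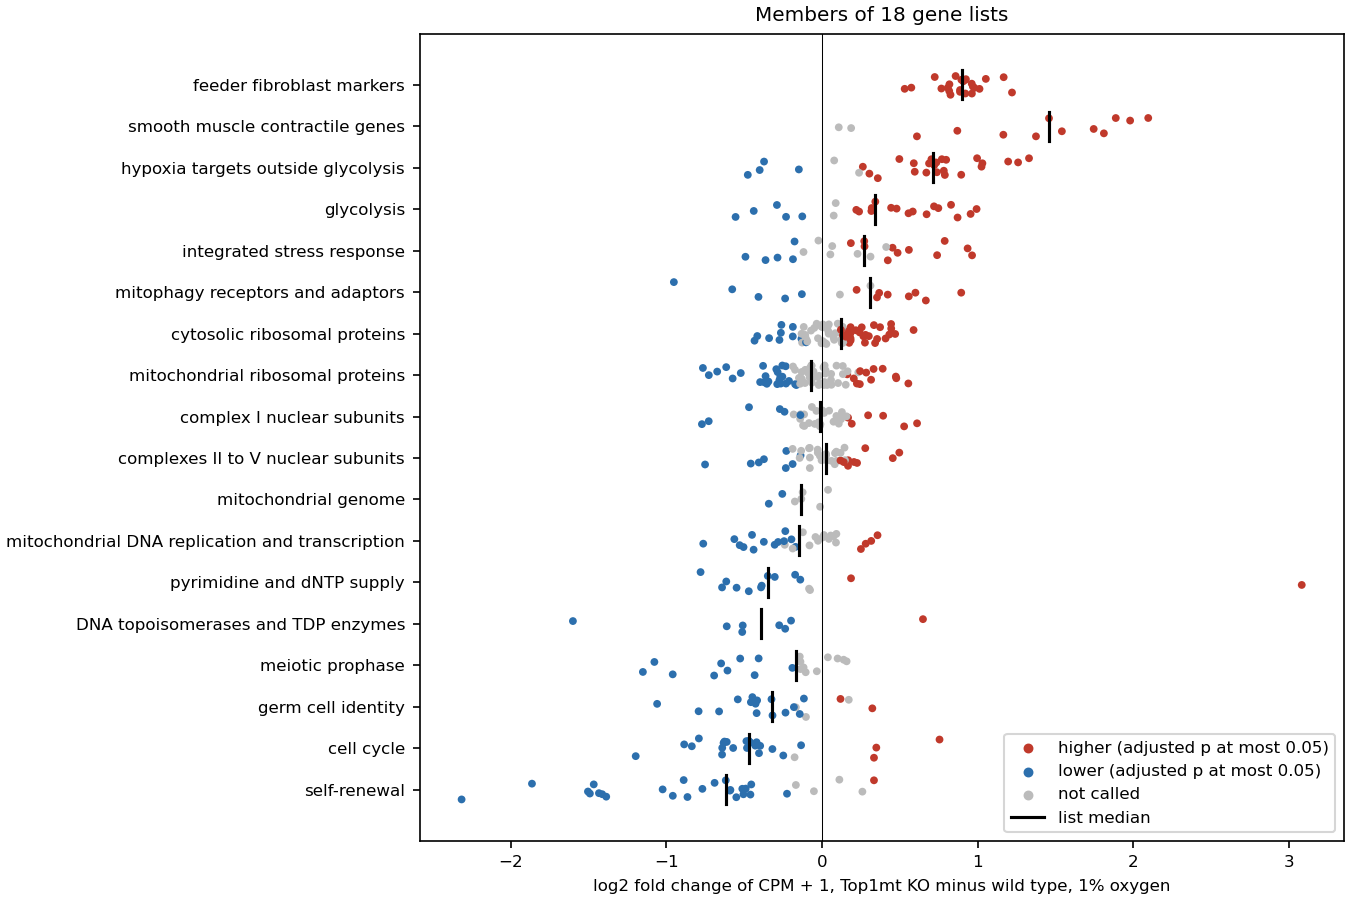
Log2 fold change of CPM + 1, KO minus wild type, of each tested member of 18 gene lists; red points rose, blue points fell, grey points did not pass the test, and black bars are list medians. Feeder, contractile, hypoxia target and glycolysis lists lie mostly to the right of 0, and the cell cycle and self-renewal lists mostly to the left.

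Hypoxia targets and glycolysis genes were higher in KO cells although both groups were at 1% oxygen. The part of the promoter that lies before the start of transcription is shown for 5 of them, to let the ACGTG core bound by hypoxia-inducible factors be seen in genes that rose and in 1 that fell. They are the called members of each list with the smallest adjusted p whose core lies within 100 bases before the start, with sequences from RefSeq (GRCm38.p6). The core, read on either strand (ACGTG or CACGT, which can overlap each other), is in capitals.

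P4ha2, 11:54100824-54100923, plus strand: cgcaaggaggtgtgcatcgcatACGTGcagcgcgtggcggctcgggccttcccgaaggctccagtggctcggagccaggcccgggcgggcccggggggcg
Egln1, 8:124949255-124949354, minus strand: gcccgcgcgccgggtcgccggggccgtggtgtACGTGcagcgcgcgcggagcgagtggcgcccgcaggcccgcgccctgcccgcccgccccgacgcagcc
Ldha, 7:46845704-46845803, plus strand: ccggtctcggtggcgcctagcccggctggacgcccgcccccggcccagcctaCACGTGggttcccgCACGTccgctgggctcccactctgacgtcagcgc
Pkm, 9:59657127-59657226, plus strand: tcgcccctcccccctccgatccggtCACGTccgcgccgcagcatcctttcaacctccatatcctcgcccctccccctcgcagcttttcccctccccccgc
Mxi1, 19:53329313-53329412, plus strand: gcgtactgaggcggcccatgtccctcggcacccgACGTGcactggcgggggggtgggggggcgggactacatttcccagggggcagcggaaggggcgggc

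In the 250 bases before the start, the core was found for 12 of 19 hypoxia targets and 11 of 22 glycolysis genes with a RefSeq entry (63.2% and 50%), against 24.4% of the 11589 tested genes with one. It was found for 8 of 14 hypoxia targets that rose and for 3 of 4 that fell. A match is a description of the letters, not of binding.

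Of 30 hypoxia targets outside glycolysis 24 rose and 4 fell, with a median of 0.71 (1.06 germ-scaled, against 0.28 over all genes). P4ha2, a collagen prolyl hydroxylase, had 559 and 548 CPM in KO cells, against 274 and 280 CPM in wild type cells (1.00 ± 0.07, limma adjusted p = 4.5e-10). The collagen cross-linking genes Plod2 and Loxl2 rose by 0.59 ± 0.04 and 1.03 ± 0.08. Vegfa, the vessel growth factor, had 336 and 329 CPM in KO cells, against 190 and 191 CPM in wild type cells (0.80 ± 0.09). Ndufa4l2, a hypoxia-induced mitochondrial protein, had 81.0 and 78.7 CPM in KO cells, against 31.0 and 31.2 CPM in wild type cells (1.33 ± 0.13). Ndrg1 rose by 0.74 ± 0.05, and Egln1, the oxygen-sensing prolyl hydroxylase PHD2, had 358 and 351 CPM in KO cells, against 226 and 243 CPM in wild type cells. The 4 that fell were the histone demethylase Kdm3a (-0.48 ± 0.05), Mxi1 on chromosome 19 (-0.40 ± 0.06), the transferrin receptor Tfrc (-0.37 ± 0.07) and the adenylate kinase Ak4 (-0.15 ± 0.06, a call lost with TMM scaling, limma adjusted p = 0.17, and a sign that turned to 0.21 when germ-scaled). Mxi1 no longer fell when values were centred per chromosome (-0.01, limma adjusted p = 0.84).

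Of 23 glycolysis genes 16 rose and 5 fell, with a median of 0.34. Ldha, lactate dehydrogenase A, had 1278 and 1302 CPM in KO cells, against 652 and 678 CPM in wild type cells (0.96 ± 0.08). Tpi1, Gapdh, Eno2 and Pkm rose by 0.83 ± 0.07, 0.67 ± 0.06, 0.99 ± 0.08 and 0.58 ± 0.06. The glucose transporters diverged: Slc2a1 (GLUT1) had 600 and 616 CPM in KO cells, against 440 and 453 CPM in wild type cells, while Slc2a3 (GLUT3) had 444 and 434 CPM in KO cells, against 646 and 645 CPM in wild type cells. Slc2a3 thus fell by 0.56 ± 0.06. Pdk1, the kinase that shuts off pyruvate dehydrogenase, on chromosome 2, fell by 0.44 ± 0.05, and this was lost when centred per chromosome (-0.05, limma adjusted p = 0.38). Hif1a had 174 and 174 CPM in KO cells, against 154 and 148 CPM in wild type cells (0.20 ± 0.06, limma adjusted p = 0.0052), a call lost without wild type replicate 2 (0.053). Epas1 (HIF2A) fell by 0.21 ± 0.06, and its sign turned when germ-scaled (0.14). Of 10 HIF pathway genes 1 rose and 6 fell (4 and 2 when germ-scaled), the fallen ones including the asparaginyl hydroxylase Hif1an, on chromosome 19 (-0.79 ± 0.05), and Hif3a (-0.58 ± 0.08). Feeder markers were higher in the same KO libraries, and their part in the hypoxia and glycolysis values was not tested.

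Around the targeted gene, 157 genes within 5 Mb of Top1mt were tested, of which 57 rose (36.3%) and 22 fell (14.01%). Over the 603 tested genes of chromosome 15, 35.2% rose and 18.2% fell, and over all tested genes 25.2% and 33.2%. The median of the 157 genes was 0.15, against 0.11 over chromosome 15. The smallest adjusted p were those of the linker histone H1f0 (0.76 ± 0.06), the galectin Lgals1 (1.18 ± 0.11), the nuclear envelope gene Sun2 (0.62 ± 0.06) and the cytidine deaminase Apobec3 (0.74 ± 0.07), all higher in KO cells.

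Feeder markers also moved in the labelled Hif1a KO against Hif1a wild type comparison at 1% oxygen, which shares no library with this one, so the 2 effects were compared. Names of the Hif1a libraries carry 6d and those of the Top1mt libraries 2d, and the strains differ. Libraries labelled Hif1a KO held more Hif1a transcript than their wild type (618 and 593 CPM, against 251 and 251 CPM), so the label is used as such. The difference of the 2 effects was positive for 4838 genes (32.6%) and negative for 2730 (18.4%), 51% in all, a share of 63.9% positive that turned to 35.3% with median-of-ratios scaling. In the feeder list 3 of 24 genes differed in each direction, and the median difference was -0.03. Feeder sums were 46869 and 45892 CPM in Top1mt KO against 25049 and 24935 CPM in Top1mt wild type, and 69690 and 67710 CPM in labelled Hif1a KO against 32047 and 40135 CPM in Hif1a wild type. The contractile list differed in 1 gene upward and 3 downward of 13, and the hypoxia targets in 7 upward and 4 downward of 30, with median differences of 0.04 and 0.03. Other lists differed widely, against a median of 0.10 over all genes. The difference was positive for 19 of 20 germ cell identity genes and negative for none (median 0.83). For meiotic prophase genes it was positive for 14 of 20 and negative for none (median 0.83). A positive difference is not a rise in Top1mt KO. Germ cell identity sums were 3393 and 3429 CPM in Top1mt KO, against 4384 and 4351 CPM in Top1mt wild type. In labelled Hif1a KO they were 2243 and 2388 CPM, against 5302 and 4977 CPM in Hif1a wild type. In the cell cycle list the difference was positive for 15 and negative for 4 of 25 (median 0.48). It was positive for 3 and negative for 15 of 20 p53 targets (median -0.72), and positive for 1 and negative for 14 of 19 chemokine and acute-phase genes (median -0.83). These list counts were not recomputed under the scalings that turned the overall share.

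The 2 effects differed most for Upp1, with a difference of 3.84 (limma adjusted p = 5.6e-12): it had 3.33 and 4.21 CPM in labelled Hif1a KO, against 8.09 and 6.12 CPM in Hif1a wild type. Sfi1 differed by 3.32, with 141 and 151 CPM in labelled Hif1a KO, against 285 and 303 CPM in Hif1a wild type. Pet2 differed by 2.51, with 40.6 and 41.4 CPM in Top1mt KO against 15.5 and 14.9 CPM in Top1mt wild type, and 22.6 and 24.1 CPM in labelled Hif1a KO against 55.2 and 49.7 CPM in Hif1a wild type. Stra8 differed by 1.84, with 23.7 and 28.0 CPM in labelled Hif1a KO, against 69.6 and 81.9 CPM in Hif1a wild type. Over the self-renewal list the difference was positive for 7 and negative for 11 of 29 genes, with a median of -0.18. Of these, Gfra1 and Ret fell further in the Top1mt line, by differences of -1.70 and -0.62 (limma adjusted p = 1.7e-10 and 2.0e-07). Gfra1 had 73.7 and 79.0 CPM in labelled Hif1a KO, against 124 and 113 CPM in Hif1a wild type. Chrna4 differed by -2.21, Apod by 1.59 and Kit by 1.10. For these genes the direction of the difference was the same under median-of-ratios and TMM scaling.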

How the data were processed

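Polyadenylated RNA of mouse germline stem cells was sequenced (TruSeq stranded mRNA, per the labels' protocols). For 16 libraries and 21924 protein-coding genes, the values the authors deposited are CPM, in 1 table. Use of cutadapt 1.16, STAR 2.6.0c, HTSeq 0.11.2 and DESeq2 1.22.2 with build mm10 is named per the submitters' processing notes; annotation and strand setting are not given in the sources used here. All values were whole multiples of 1 read within 0.01, so reads were recovered for the edgeR and DESeq2 alternatives. Depth over the 16 libraries was 11942104 to 25659895 reads. A value of 0 allows up to 3 reads (0.117 to 0.251 CPM), by counting error only.

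limma 3.58.1 (R 4.3.3) was fitted on log2(CPM + 1) over all 16 libraries with a mean per group, empirical Bayes with trend, and no replicate block; the plan named edgeR for whole counts, and the file holds CPM. Calls were at a Benjamini-Hochberg adjusted p of 0.05. The script was tested on simulated data. Alternatives were pseudocounts 0.1 and 0.5, other filters, median-of-ratios, TMM, germ cell and feeder-free scalings, edgeR 4.0.16, DESeq2 1.42.0, a replicate block, only the 4 Top1mt libraries, and each replicate left out. Chosen after seeing the data were a test without chromosomes 2 and 19 and values centred per chromosome. Replicates differed by more than counting error (chi-square per gene 2.53 in KO, 2.26 in wild type).

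The comparison and the 44 gene lists were chosen with earlier results of these data known, and no set test was run. Genes named were drawn from Top1mt, the 15 largest rises and falls (mean of at least 5 CPM, no overlap) and genes central to the design. Others came from up to 5 members of each list by smallest adjusted p and from 4 neighbours of Top1mt. The 10 largest differences between KO effects in each direction were a further source. Not every gene of these sets is printed. Dusp6, Itga6, Bcl6b, Spry4, Id4, Ccnd1 to Ccnd3, Egln1, Mxi1, Kdm3a, Tfrc, Ak4, Ndufa4l2, Slc2a3, Pdk1, Fundc1, Pink1, Atf5 and Myl9 were added after their values were seen. Coordinates are from GENCODE M21; 21894 symbols matched once and 30 more than once. A withheld item is not reported here.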

Additional observations from a re-analysis of the deposited data

How the results depend on the processing

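Scaling mattered most. Scaled to the germ cell identity genes, 8268 genes rose and 1564 fell in KO cells. Falls turned to positive values for Top3a (0.15), Top3b (0.078), Tdp1 (0.11), mt-Nd5 (0.015), mt-Co1 (0.10), Tfam (0.18), Polg (0.16), Epas1 (0.14), Ak4 (0.21) and Kit (0.071). Each of these values lay below the germ-scaled median of 0.28 over all genes. No other alternative turned the sign of a named gene that had been called. Numbers of rises and falls stayed within 1.5 times under the other alternatives, from 3100 to 4296 and from 3735 to 5016. Leaving out a Top1mt library gave 3100 to 3278 rises and 4250 to 4357 falls, and -1.66 to -1.54 for Top1mt. The difference between the 2 KO effects turned with scaling: positive genes numbered 2626 with median-of-ratios, 2881 with TMM, 2818 with edgeR and 2002 with DESeq2, and negative genes 4814, 4445, 4225 and 3994. Leaving out 1 library gave 4163 to 4917 positive and 2302 to 2873 negative genes. The replicate numbers are those of the titles and are not said to pair libraries. The library names of KO replicate 2 and wild type replicate 2 carry different numbers. Libraries of the same title number deviated together with r = 0.14 over genes (2 pairs). With a replicate block 3810 genes rose and 5016 fell, and the difference was positive for 5017 and negative for 2898. mt-Nd4 passed the test in the fit of only the 4 Top1mt libraries (-0.17, limma adjusted p = 0.0036). Polg, Epas1, Top3a and Tdp1 lost their calls by DESeq2 (adjusted p = 0.051, 0.067, 0.10 and 0.060); the causes were not tested. Outside chromosomes 2 and 19, 3515 genes rose and 3800 fell.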

Other observations

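Counts for lipid synthesis genes depended on the scaling. Of 24 cholesterol synthesis genes 12 fell and 1 rose, with a median of -0.11, which turned to 0.24 when germ-scaled (0.28 over all genes), with 3 falls and 13 rises. Dhcr7, the last enzyme of the pathway, fell by 0.56 ± 0.05. Of 12 fatty acid synthesis genes 8 fell and 2 rose, and 4 of the 8 lie on chromosomes 2 and 19, such as the cytosolic acetyl-CoA synthetase Acss2 (-1.02 ± 0.05) and the desaturase Fads2 (-0.69 ± 0.05). Outside these chromosomes 4 of 7 fell, and when germ-scaled 3 of the 12 fell and 5 rose. The elongase Elovl6, on chromosome 3, fell by 0.72 ± 0.08.

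All 8 insulin-like growth factor and binding protein genes rose (Igfbp7 by 1.20 ± 0.10), 8 of 9 metalloproteinases and inhibitors rose (Timp1 by 0.94 ± 0.11) and 1 fell, the gelatinase Mmp9 on chromosome 2, with 17.05 and 19.9 CPM in KO cells, against 41.7 and 37.5 CPM in wild type cells. YAP and TEAD targets rose in 9 and fell in 1 of 11, with Ankrd1 at 199 and 198 CPM in KO cells, against 66.3 and 63.7 CPM in wild type cells, and Ccn2 rising by 1.37 ± 0.11. Chemokine and acute-phase genes rose in 9 and fell in 1 of 19 (Saa3 by 1.04 ± 0.12, Csf1 by 0.95 ± 0.13), and MHC class I genes rose in 8 and fell in 1 of 12 (H2-K1 by 0.66 ± 0.06, B2m by 0.68 ± 0.07). Interferon-stimulated and cytosolic DNA sensing genes showed 5 rises and 6 falls of 25 (14 and 1 when germ-scaled), where 25.2% of all tested genes rose and 33.2% fell. Tmem173, which codes for the DNA-sensing adaptor STING, had 14.6 and 13.3 CPM in KO cells, against 3.70 and 3.42 CPM in wild type cells (1.71 ± 0.15), while the interferon target Oasl2 fell by 0.92 ± 0.14. The 24 feeder markers rose in the same libraries, and their part in these values was not tested.

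Of 20 replication-dependent histones that passed the filter, out of 67 in the table, 15 rose and none fell (Hist1h1c by 1.31 ± 0.10); these transcripts lack a poly(A) tail in dividing cells. Immediate early genes rose in 6 and fell in 3 of 13 (Jun by 0.64 ± 0.11, Fosb by 0.47 ± 0.11, Egr2 by -0.73 ± 0.07). Pluripotency genes rose in 4 and fell in 3 of 8, epithelial genes rose in 6 and fell in 1 of 12, and Y-linked genes fell in 3 of 8, with none rising. Leukocyte markers rose in 3 of 7 and endothelial markers fell in 1 of 5. When germ-scaled, Y-linked genes rose in 4 of 8, with none falling. These counts are to be read against the 25.2% of all tested genes that rose and the 33.2% that fell.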
